A study of Rattus norvegicus with 12 samples.

Results

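The miR-15 family was measured in rat hearts after myocardial infarction, with and without Yiqifumai Injection (YQFM). The 6 members described here, rno-miR-15b-5p, rno-miR-16-5p, rno-miR-195-5p, rno-miR-497-5p, rno-miR-322-5p and rno-miR-503-5p (below without the species prefix), were chosen by name from the 758 miRNAs of the array. None of the 6 members passed the test for a difference between groups. A set of 4, miR-15b-5p, miR-16-5p, miR-195-5p and miR-497-5p, stood high together in the same few hearts, namely MI replicates 1 and 2 and YQFM replicate 1, while of these hearts only MI replicate 1 lay above the Sham range for miR-322-5p and miR-503-5p. These hearts also lay above the Sham range for let-7b-5p, let-7i-5p and miR-100-5p, miRNAs outside the family. Those miRNAs were picked for values near those of miR-16-5p or miR-195-5p on the same arrays, so this is not a separate observation.

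MiRNAs of this family pair with their target mRNAs mainly through the seed at their 5' end and lower the stability and translation of those mRNAs. Their known targets include cell cycle genes such as cyclins and the checkpoint kinase Chek1, and the survival gene Bcl2. In the heart the family is best known for restraining the proliferation of cardiomyocytes after birth, with miR-195 as its most studied member there.

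The tissue came from the left ventricle, near the infarct area, of male Wistar rats, with 4 heart samples (hearts, below) per group, each on a single-dye Agilent array of its own. The sources used here do not say that each sample came from a separate rat, so the p-values measure the spread between these samples. MI and YQFM rats had a ligature tied around the left anterior descending artery, and infarction was accepted on electrocardiographic and echocardiographic criteria. Sham rats had the same operation without the ligature. From 4 weeks after surgery, YQFM rats received the drug at 5 mg/kg/d intraperitoneally for 28 days, and Sham and MI rats received saline. The labels also call the MI hearts chronic heart failure (CHF). The source name of MI replicate 4 reads Sham, and that of Sham replicate 4 reads YQFM, while their titles and group entries give the groups used here. No age was given in the sources used here.

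The mature sequences show what the members share and where they part. The lines below give them 5' to 3' from RefSeq (GRCr8), with bases 2 to 8, the seed, in capitals.
miR-15b-5p: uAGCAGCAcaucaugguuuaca
miR-16-5p: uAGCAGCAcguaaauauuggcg
miR-195-5p: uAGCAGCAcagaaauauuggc
miR-497-5p: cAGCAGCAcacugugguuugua
miR-322-5p: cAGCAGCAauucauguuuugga
miR-503-5p: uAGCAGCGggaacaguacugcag

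The seed AGCAGCA was identical in 5 members, and miR-503-5p carried AGCAGCG, which differs in its last base. Behind the seed the members differed more, with 1 exception: miR-16-5p and miR-195-5p shared a run of 10 bases, AAAUAUUGGC, near the 3' end. The next longest run behind the seed, UGGUUU in miR-15b-5p and miR-497-5p, had 6 bases. Each member was read by 2 probes on the array, and the probes of miR-16-5p and miR-195-5p were complementary to each other's miRNA over 10 bases. To what extent these 2 miRNAs crossed between their probes was not tested.

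At the RefSeq positions read here, the 6 members lie in 3 loci with a pair in each. The array signal of a mature miRNA does not show which locus made it. MiR-15b-5p (chr2:155555197-155555218) and miR-16-5p (chr2:155555343-155555364) lie on the plus strand inside Smc4, a condensin gene, with 146 bases between their starts. MiR-497-5p (chr10:55450172-55450193) and miR-195-5p (chr10:55450509-55450529) lie on the plus strand with 337 bases between their starts. MiR-322-5p (chrX:137726198-137726219) and miR-503-5p (chrX:137725899-137725921) lie on the minus strand inside a long noncoding RNA gene, with 299 bases between their starts.

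Signals below are log2 values of the background-subtracted intensity, averaged over spots and probes and scaled between arrays, so that 1 unit is a factor of 2. Detection meant that 1 probe or more had over 50% of its spots well above background. All 6 members were detected on all 12 arrays, passed the filter that kept 263 miRNAs for testing, and had no saturated spot. The median coefficient of variation between the spots of a member's probe lay between 2.10% for miR-16-5p and 6.04% for miR-503-5p. The level of one miRNA was not compared with that of another, since their probes bind differently. The arrays lay on 3 slides: MI replicates 1 to 3 on one, MI replicate 4 and YQFM replicate 1 on another, and all Sham arrays with YQFM replicates 2 to 4 on the remaining one. MI and Sham arrays never shared a slide. In whole tissue, fewer cells of a type and less RNA per cell cannot be told apart.

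Of the chromosome 10 pair, miR-195-5p, which blocks cell cycle genes such as Chek1 in cardiomyocytes, had log2 signals of 7.85, 7.50, 7.94 and 7.79 in Sham replicates 1 to 4. They were 8.97, 8.54, 8.08 and 7.68 in MI replicates 1 to 4, and 8.83, 7.90, 7.80 and 7.88 in YQFM replicates 1 to 4. Of the MI hearts 3 lay above all Sham hearts, MI replicate 4 lay inside the Sham range, and YQFM replicate 1 stood apart from the other 3 YQFM hearts, which lay inside the Sham range. The mean was 0.55 higher in MI than in Sham (SE 0.29, n = 4 against 4), a fold of 1.46 with a 95% interval from 0.940 to 2.27, and limma gave an adjusted p of 0.231. This was the largest MI to Sham ratio of the 6 members, at rank 20 of the 263 tested miRNAs in descending order.

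Its neighbour miR-497-5p, which shares the seed and cell cycle targets, had log2 signals of 6.94, 6.68, 7.18 and 6.90 in Sham, 7.79, 7.37, 6.96 and 6.91 in MI, and 7.89, 7.01, 6.81 and 7.05 in YQFM, each in the order of replicates 1 to 4. The hearts that were high for miR-195-5p were high here too, but MI replicate 3 lay inside the Sham range. The MI mean was 0.33 above the Sham mean (SE 0.25, limma adjusted p = 0.404).

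The difference between miR-195-5p and miR-497-5p on the same array does not depend on the scaling between arrays, and only its change between arrays has a meaning. It was 0.91, 0.82, 0.76 and 0.89 in Sham, 1.19, 1.17, 1.12 and 0.77 in MI, and 0.94, 0.89, 0.99 and 0.83 in YQFM. MI replicates 1 to 3 lay above all Sham and YQFM hearts, and MI replicate 4 lay among the Sham hearts. These 3 arrays shared a slide that held no other array, and for them the slide cannot be told apart from the group. The same difference between miR-15b-5p and miR-16-5p, and between miR-322-5p and miR-503-5p, overlapped among the 3 groups.

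Of the chromosome 2 pair, miR-16-5p, a ubiquitous member that targets Bcl2 and several cyclins, had log2 signals of 9.11, 8.77, 9.11 and 9.11 in Sham replicates 1 to 4. They were 9.77, 9.43, 9.13 and 9.05 in MI and 9.57, 8.86, 8.92 and 8.97 in YQFM. In all, 3 MI hearts and 1 YQFM heart lay above all Sham hearts, MI replicate 3 by a narrow margin, and the groups overlapped. The MI mean was 0.32 above the Sham mean (SE 0.19), a fold of 1.25 with a 95% interval from 0.931 to 1.67 and a limma adjusted p of 0.303.

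For miR-15b-5p, which lies in the same host gene, the log2 signals were 5.97, 5.56, 6.18 and 6.02 in Sham, 6.80, 6.29, 5.62 and 5.97 in MI, and 6.57, 5.89, 5.70 and 5.78 in YQFM. MI replicates 1 and 2 and YQFM replicate 1 lay above the Sham range, and the other MI and YQFM hearts lay inside it. The MI to Sham ratio was 0.24 (SE 0.26, limma adjusted p = 0.619).

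Of the X-linked pair, miR-322-5p, the rodent counterpart of human miR-424, had log2 signals of 7.13, 6.55, 6.59 and 7.01 in Sham, 7.27, 6.85, 6.72 and 6.92 in MI, and 6.92, 6.62, 6.95 and 6.76 in YQFM. Only MI replicate 1 lay above the Sham range, and no YQFM heart did. The MI to Sham ratio was 0.12 (SE 0.16, limma adjusted p = 0.711), and its 95% interval ran from a fold of 0.849 to 1.39.

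Of the 2 probes of miR-503-5p, known from work on endothelial cells and cell cycle exit, 1 was detected on no array. The signal of miR-503-5p still averages both probes, whose mean scaled signals were 22.1 and 1.54. Its log2 signals were 3.56, 3.52, 3.36 and 3.68 in Sham, 4.37, 3.52, 3.35 and 3.12 in MI, and 3.37, 3.16, 3.69 and 3.66 in YQFM, where the floor set for all miRNAs was 2.38. MI replicate 1 was the highest heart and MI replicate 4 the lowest of all 12. The MI to Sham ratio of 0.06 (SE 0.23, limma adjusted p = 0.927) became -0.20 without MI replicate 1 and -0.00041 without Sham replicate 3. On the detected probe alone it was 0.11.

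**Figure D1:**
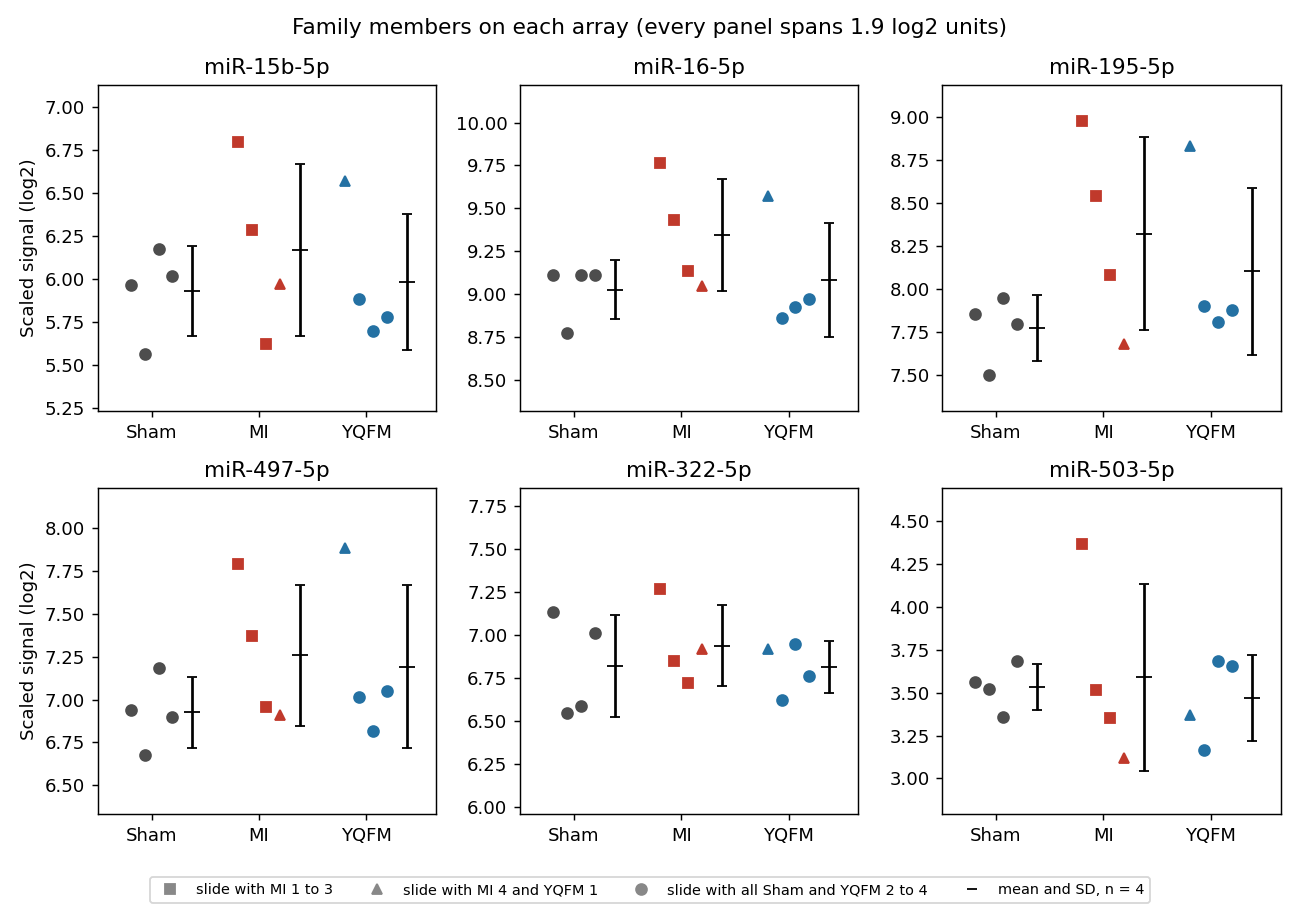
Scaled log2 signal of each member (vertical axes, same span in all panels) in Sham, MI and YQFM hearts. Each point is 1 array, its shape gives the slide, and the bar beside each group is the mean with the SD of 4 arrays. MI replicate 1 is the highest array for 5 members and YQFM replicate 1 for miR-497-5p.

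Across the family, the question of MI against Sham was what the infarcted ventricle had gained or lost in these miRNAs after saline alone. By limma 0 of 6 members passed the adjusted threshold of 0.05, where 7.22% of all tested miRNAs passed it, and 0 of 6 had an unadjusted p under 0.05, where 29.3% of all tested did. The unpaired test of the study's methods also called 0 members. All 6 ratios were above 0, between 0.06 and 0.55 with a median of 0.28, whereas 41.8% of all tested miRNAs had a ratio above 0 and their median was -0.04. Without MI replicate 1 the ratios were 0.33 for miR-195-5p, 0.18 for miR-16-5p, 0.15 for miR-497-5p, 0.03 for miR-15b-5p and 0.0098 for miR-322-5p, besides the turned sign of miR-503-5p. In none of the 6 were the MI and Sham hearts fully separated, where 12.2% of the tested miRNAs had groups that did not overlap.

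YQFM against MI asked what the drug changed in infarcted hearts. Here 0 of 6 members and 0% of all tested miRNAs passed the adjusted threshold in limma, and 0 members against 19% of all tested had an unadjusted p under 0.05. The 6 ratios were all below 0, where 51.3% of the tested miRNAs were, though without scaling between arrays miR-497-5p and miR-503-5p stood at 0.06 and 0.0059. This comparison shares the MI arrays with the one before, so that its signs are not a separate observation. The ratios were -0.19 for miR-15b-5p, -0.26 for miR-16-5p, -0.22 for miR-195-5p, -0.07 for miR-497-5p, -0.13 for miR-322-5p and -0.12 for miR-503-5p, with limma adjusted p between 0.519 and 0.951. The 95% interval of miR-195-5p ran from a fold of 0.553 to 1.34, and that of miR-16-5p from 0.622 to 1.12. No member's MI and YQFM hearts were fully separated, against 6.46% of all tested miRNAs. Without MI replicate 1 the ratios of miR-15b-5p, miR-195-5p, miR-497-5p and miR-503-5p turned to 0.02, 0.0023, 0.11 and 0.14, and without YQFM replicate 3 that of miR-497-5p turned to 0.06.

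YQFM against Sham asked how far treated infarcted hearts were from uninjured ones. None of the 6 members passed in limma (0% of all tested; 0 members against 5.7% of all tested at an unadjusted p under 0.05), and none was fully separated (6.08% of all tested). The ratios were 0.33 for miR-195-5p and 0.26 for miR-497-5p (SE 0.29 and 0.25), and between -0.06 and 0.06 for the other 4 members. Of the 6 ratios 4 were above 0, where 29.3% of all tested were, and all 6 were above 0 with no scaling, quantile normalization or the percentile over all miRNAs. Ordered by their means, 4 members ran MI, YQFM, Sham and the X-linked pair ran MI, Sham, YQFM, and no neighbours in either order differed beyond their spread. Without YQFM replicate 1 the ratios of miR-195-5p and miR-497-5p were 0.09 and 0.03, and those of miR-15b-5p and miR-16-5p turned to -0.14 and -0.11. These 2 also turned without Sham replicate 2, to -0.07 and -0.03. The ratio of miR-322-5p, -0.0057, turned to between 0.01 and 0.10 without Sham replicate 1 or 4 or YQFM replicate 2 or 4, and that of miR-503-5p to 0.04 without YQFM replicate 2.

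**Figure D2:**
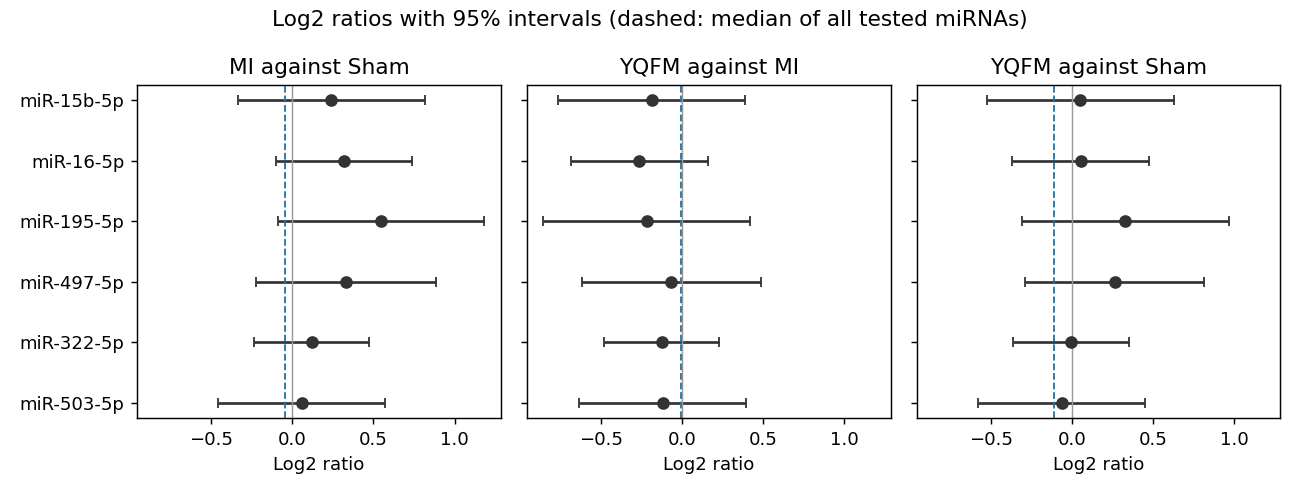
Log2 ratio (horizontal axes) of each member in the 3 comparisons, with its 95% interval from limma over 12 arrays. The dashed line is the median ratio of all 263 tested miRNAs. All intervals include 0, and the highest point is the MI to Sham ratio of miR-195-5p at 0.55.

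Hearts of the same group differed widely. For miR-195-5p the MI hearts spanned 7.68 to 8.97, a wider span than the difference between the MI and Sham means. In MI replicate 1 all 6 members lay above their Sham mean, by 0.45 for miR-322-5p up to 1.20 for miR-195-5p, with a median of 0.85. The corresponding median over the 6 members was 0.38 in MI replicate 2, -0.03 in MI replicate 3 and 0.0044 in MI replicate 4. In YQFM replicate 1 miR-195-5p was 1.06, miR-497-5p 0.96, miR-15b-5p 0.64 and miR-16-5p 0.55 above the Sham mean, while miR-322-5p was 0.10 above and miR-503-5p 0.16 below it (-0.16). The other 3 YQFM hearts had family medians between -0.10 and 0.02. Over all tested miRNAs the median on these arrays lay between -0.20 and 0.13, where the scaling between arrays itself holds such medians near 0.

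**Figure D3:**
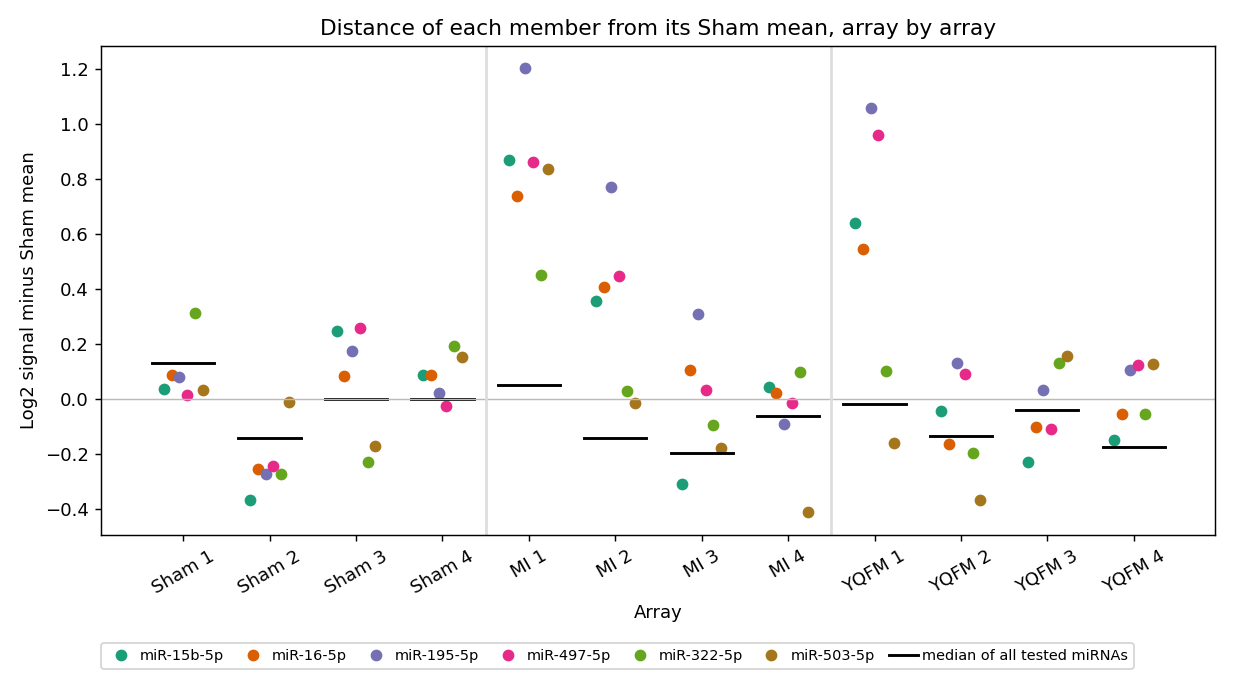
Log2 signal of each member minus its mean over the 4 Sham arrays (vertical axis) on each of the 12 arrays (horizontal axis), with a bar for the median of all tested miRNAs. All 6 members lie above 0 in MI replicate 1. In MI replicate 2 and YQFM replicate 1 the other members spread upward, while miR-322-5p and miR-503-5p stay nearer 0.

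Each member's profile over the 12 arrays was described by the root mean square difference from every other tested miRNA, after each was centred on its own mean. Profiles were not scaled by their spread, so the distance depends on the size of the swings as well as on their shape. The miRNA nearest to miR-195-5p was miR-497-5p (0.143), and the nearest to miR-497-5p was miR-15b-5p (0.142), followed by miR-195-5p (0.143). The nearest to miR-15b-5p were miR-497-5p (0.142) and miR-16-5p (0.152). Thus miR-15b-5p and miR-497-5p, from different chromosomes, were nearest to each other among all 263 tested miRNAs. For miR-16-5p, let-7i-5p (0.075) and miR-100-5p (0.084) were nearest, and its nearest member, miR-497-5p, came at place 11. For miR-195-5p, let-7b-5p (0.184) came next after miR-497-5p. MI replicates 1 and 2 and YQFM replicate 1 lay above the Sham range for all of these non-members. The non-members were picked for nearness on the same arrays, so this is not a separate observation. In these hearts the log2 signals of let-7b-5p were 11.17, 11.09 and 11.34, where the highest Sham heart was at 10.69. For let-7i-5p they were 9.93, 9.72 and 9.93 against 9.40, and for miR-100-5p 7.20, 6.95 and 6.98 against 6.70. The X-linked pair had no member among the 2 nearest of each: miR-322-5p was nearest to miR-126a-3p (0.092) and let-7g-5p (0.100), and miR-503-5p to miR-3574 (0.211) and miR-3099 (0.230). Seen from miR-503-5p, miR-322-5p came at place 5, and seen from miR-322-5p, miR-503-5p came at place 82. The distance between miR-322-5p and its neighbour miR-503-5p was 0.239, while the root mean square of miR-322-5p about its own mean was only 0.212. These distances describe 12 arrays that share groups and slides.

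The high hearts of the pairs on chromosomes 2 and 10 were mostly those in which miRNAs linked to fibroblasts were high. The fibroblast list held miR-21-5p, miR-199a-5p, miR-199a-3p and miR-214-3p, all 4 detected on all arrays, and 4 of 4 had MI to Sham ratios above 0, though limma called none of them. Their summed signal, on the log2 scale, was 10.59 in YQFM replicate 1, 10.11 in MI replicate 1, 9.86 in MI replicate 2, 9.62 in MI replicate 4 and 8.88 in MI replicate 3. It ranged from 8.57 to 9.13 in Sham and from 8.93 to 9.07 in the other 3 YQFM hearts. MI replicates 3 and 4 did not follow the miR-195-5p order, in opposite ways. In MI replicate 4 the fibroblast sum was above all Sham hearts and the miR-195-5p signal, 7.68, was inside the Sham range. In MI replicate 3 the sum was inside the Sham range and the miR-195-5p signal, 8.08, was above all Sham hearts. The cardiomyocyte sum ran from 13.30 to 13.71 in Sham, 13.20 to 13.53 in MI and 13.17 to 13.49 in YQFM, with miR-208b-3p, a cardiomyocyte marker, detected on no array and miR-208a-3p on 1. Of the 6 leukocyte miRNAs 4 were detected on all arrays and both arms of miR-142 on none, and their sum ran from 8.37 to 8.59 in Sham, 8.33 to 8.68 in MI and 8.36 to 8.64 in YQFM. MI replicate 1 was the highest array for the leukocyte sum (8.68). It was also the highest for the endothelial sum of both arms of miR-126a (9.88). The endothelial sum ran from 9.14 to 9.52 in Sham, 9.47 to 9.88 in MI and 9.17 to 9.48 in YQFM. The smooth muscle sum ran from 8.97 to 9.26, 8.57 to 9.24 and 8.75 to 9.11 in the same order. The erythrocyte sum ran from 7.63 to 7.97, 7.34 to 7.74 and 7.37 to 7.63. The part of these cell types in the family's values was not tested.

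**Figure D4:**
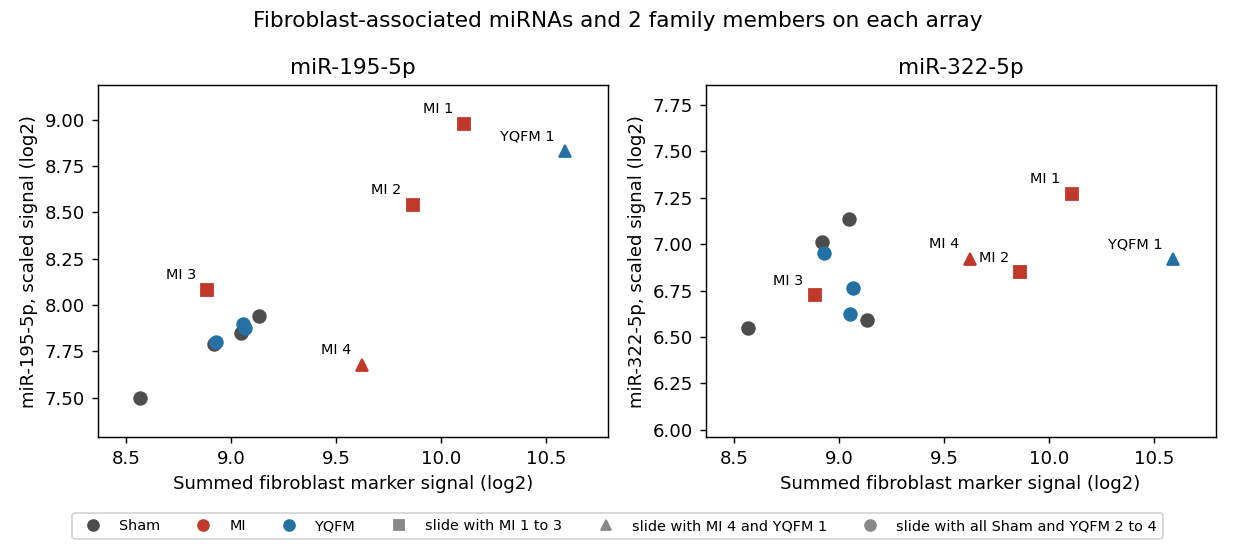
Scaled log2 signal of miR-195-5p and of miR-322-5p (vertical axes, same span) against the log2 of the summed signal of 4 fibroblast-linked miRNAs (horizontal axes), 1 point per array with colour for the group and shape for the slide. YQFM replicate 1, MI replicate 1 and MI replicate 2 are high on both axes for miR-195-5p. MI replicate 4 lies above all Sham hearts on the horizontal axis alone, and MI replicate 3 on the vertical axis of miR-195-5p alone. MiR-322-5p spans a narrower range.

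The slide moved with the group, and the ratios depended on it. With slide as a fixed block all 6 MI to Sham ratios changed sign, to -1.06 for miR-195-5p, -0.94 for miR-497-5p, -0.74 for miR-15b-5p, -0.63 for miR-16-5p, -0.28 for miR-503-5p and -0.04 for miR-322-5p, none called (limma adjusted p between 0.625 and 0.986). These values are carried by the single pair of arrays on the slide of MI replicate 4 and YQFM replicate 1, on which YQFM was higher than MI by 1.15 for miR-195-5p and 0.97 for miR-497-5p. Slide as a random block gave -0.08 for miR-195-5p and -0.06 for miR-16-5p. Without that slide miR-195-5p was called both higher in MI than in Sham, by 0.76 (limma adjusted p = 0.0176), and lower in YQFM than in MI, by a log2 ratio of -0.67 (adjusted p = 0.0474), and miR-16-5p was called lower in YQFM than in MI (-0.53, adjusted p = 0.0474). In that setting the MI arrays lay on a slide of their own, and slide cannot be told apart from group. Within the slide of the Sham arrays the YQFM to Sham ratio was 0.09 for miR-195-5p, 0.03 for miR-497-5p, -0.14 for miR-15b-5p and -0.11 for miR-16-5p.

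**Figure D5:**
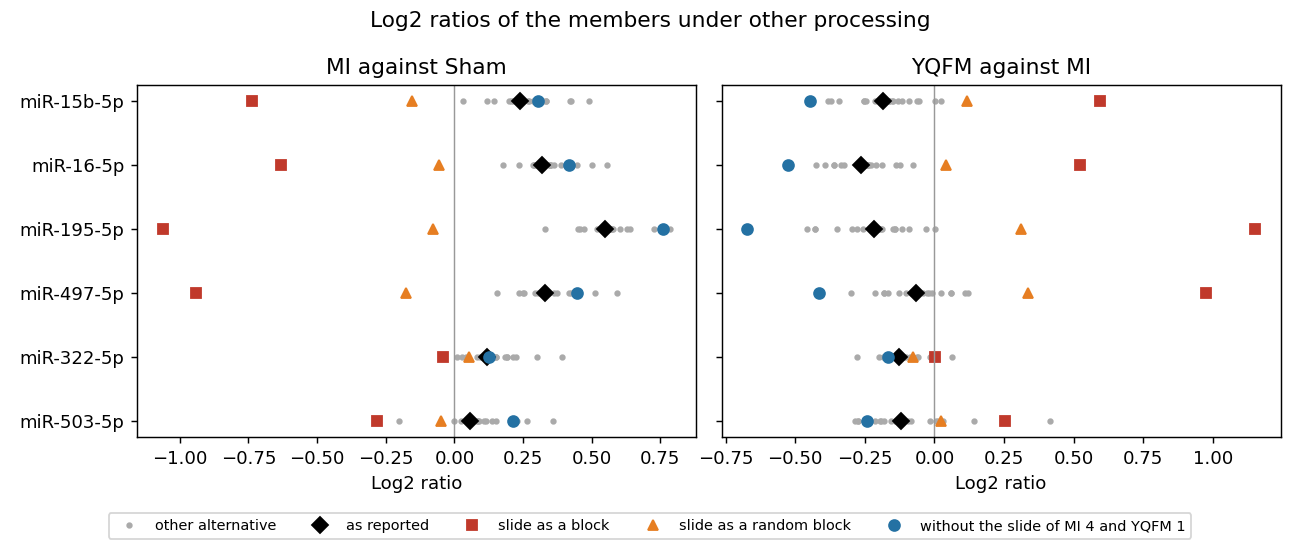
Log2 ratio (horizontal axes) of each member in MI against Sham and YQFM against MI as reported, with slide as a fixed or random block, without the slide of MI replicate 4 and YQFM replicate 1, and under each other alternative. The slide blocks move miR-195-5p from 0.55 to -1.06 and -0.08 in MI against Sham, and the grey points of its other alternatives lie between 0.33 and 0.79.

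The miRNAs related to the family were taken from lists of opposite arms, transcript partners and seed relatives. Of the 6 opposite arms, which are cut from the same hairpins, 4 were detected on no array, miR-322-3p on 1 YQFM array and miR-503-3p on 2 YQFM arrays. Limma called miR-503-3p lower in MI than in Sham (adjusted p = 0.016), but it was not well above background in either group, so no fold is given. Among the 6 miRNA arms of the genes beside miR-322 and miR-503, miR-351-3p was detected on all arrays, with ratios of 0.14 in MI against Sham and -0.23 in YQFM against MI, neither called. Of the other 5, miR-542-5p was detected on 2 arrays and the rest on none.

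MiR-15a-5p, a further family member on the array, was detected on MI replicate 4 and YQFM replicate 1 only and was not tested. These arrays shared a slide and had the most miRNAs detected, 268 and 265. The log2 signal of miR-15a-5p was 2.38, the floor, in MI replicate 4 and 3.26 in YQFM replicate 1. It was 2.63 in MI replicate 1, where it was not detected. MiR-103-3p and miR-107-3p carry the same 7 bases shifted by 1 position, at bases 1 to 7, and are known as regulators of metabolism. The first had log2 signals of 6.91, 6.60, 6.86 and 6.84 in Sham, 7.14, 6.92, 6.64 and 7.13 in MI, and 7.36, 6.64, 6.78 and 6.69 in YQFM. Its highest hearts were YQFM replicate 1, MI replicate 1 and MI replicate 4. For miR-107-3p the log2 signals were 7.25, 6.67, 6.89 and 7.01 in Sham, 7.36, 7.00, 7.06 and 7.35 in MI, and 7.17, 6.77, 6.97 and 6.87 in YQFM. Here YQFM replicate 1 lay inside the Sham range, and MI replicates 1 and 4 lay above it. Their MI to Sham ratios were 0.15 and 0.23, and limma called neither.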

How the data were processed

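The authors scanned the arrays and deposited the spot intensity values, which Feature Extraction (Agilent Feature Extraction 10.7.1.1 per the submitters' processing notes; annotation on rn4) had detrended and background-subtracted without scaling between arrays. They also deposited processed values. Among the latter, 60 of 72 member values equalled the total gene signal within 0.2%, so these 60 are linear and unscaled. Each column's median was 0.1, which was also the lowest value, so the median does not show whether the columns were scaled. The normalization of the processed values is not given in the sources used here.

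Control spots were left out, as were outlier spots (902 to 1052 of the 12128 other spots per array). Signals were averaged over spots, then over probes, divided by each array's 75th percentile, taken over the 201 miRNAs found on every array (factors 0.814 to 1.27) and floored at 5.20. Between 211 and 268 miRNAs were detected per array, and the number of arrays limits precision. The 263 miRNAs detected on at least 2 of 4 arrays of a group were compared with limma 3.58.1 (R 4.3.3) over all 12 arrays, two-sided, with Benjamini-Hochberg adjustment. The procedure was tested on simulated data.

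The members and lists were chosen with earlier results of these data known. Named miRNAs were the members, their opposite arms, transcript partners, seed relatives, the 2 nearest profiles of each member and cell type markers. Replicate numbers were not used to pair the samples. Of 12 correlations between arrays with the same number, 4 exceeded 0.1, with a range from -0.64 to 0.32, which does not settle whether samples were paired. Alternatives covered background, scaling, floor, filters, probes, arrays, blocks and the study's unpaired test. Sequences and neighbours came from RefSeq (GRCr8). Figures used matplotlib.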

Additional observations from a re-analysis of the deposited data

Results flagged for a closer look

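Within a group of 4 hearts, a value was picked out where its gap to the nearest other heart, as a share of the group's range, was above Dixon's 95% critical value. Of 27 groups of values checked, 4 were picked out, where chance alone picks out about 1 in 20 of independent groups. These groups share the same arrays and are not independent. The log2 signal of miR-16-5p in Sham replicate 2 was 8.77, below the other 3 Sham hearts, which agreed closely. YQFM replicate 1 stood above the other YQFM hearts for miR-16-5p at 9.57 and for miR-195-5p at 8.83. The within-array difference of miR-195-5p and miR-497-5p in MI replicate 4 was 0.77, below the other 3 MI hearts. This is the array whose source name reads Sham, and it is also the only MI array that lay on another slide. Label and slide cannot be told apart here.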

How the results depend on the processing

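As reported, 19 miRNAs were called in MI against Sham and 0 in the other 2 comparisons (50 of the tested miRNAs in YQFM against MI and 15 in YQFM against Sham had an unadjusted p under 0.05 in limma), and no family member was called. Members were called under 1 of the 32 alternatives only, leaving out the slide of MI replicate 4 and YQFM replicate 1, which, like the restriction to the slide of the Sham arrays, was chosen after seeing the data: 1 member in MI against Sham (with 69 miRNAs) and 2 in YQFM against MI (with 55). Of 561 recomputed member ratios, 489 kept their sign and side of the threshold, 69 changed sign without being called and 3 became called. The causes were not tested.

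With slide as a fixed block, 0 miRNAs were called in MI against Sham, and the ratios there were -0.74 for miR-15b-5p, -0.63 for miR-16-5p, -1.06 for miR-195-5p, -0.94 for miR-497-5p, -0.043 for miR-322-5p and -0.28 for miR-503-5p. In YQFM against MI they were 0.60, 0.52, 1.15, 0.97, 0.0020 and 0.25 in the same order, and in YQFM against Sham miR-15b-5p was at -0.14 and miR-16-5p at -0.11, as they also were without the slide of MI replicate 4 and YQFM replicate 1 and within the slide of the Sham arrays. With slide as a random block, 0 were called in MI against Sham, and the ratios of miR-15b-5p, miR-16-5p, miR-195-5p, miR-497-5p and miR-503-5p were -0.15, -0.056, -0.078, -0.18 and -0.048 in MI against Sham and 0.12, 0.040, 0.31, 0.33 and 0.024 in YQFM against MI. In YQFM against Sham it gave -0.039 for miR-15b-5p and -0.016 for miR-16-5p.

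The number of miRNAs called in MI against Sham was 5 with normexp, 3 with the percentile over all miRNAs, 2 with quantile normalization, 7 with no filter, 7 with only miRNAs detected on all arrays, 6 by the methods' unpaired test and 0 with the total gene signal, the authors' processed values, no scaling or the brightest probe. In YQFM against MI it was 1 with normexp, 2 with quantile normalization and 2 with the brightest probe. Without the 2 arrays with conflicting labels, 58 were called in MI against Sham and 28 in YQFM against MI. The replicate block left 10 in MI against Sham and changed no other call or sign. Whether the replicate numbers pair the samples is not settled.

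In YQFM against Sham, miR-322-5p turned to 0.11 with the total gene signal, 0.15 with the authors' values, 0.11 with the percentile over all miRNAs, 0.058 with quantile normalization, 0.15 with no scaling, 0.11 with the brightest probe and 0.058 without the arrays with conflicting labels, and miR-503-5p to 0.64, 0.12, 0.055, 0.0090, 0.095 and 0.074 under the first 6 of these and to 0.035 with normexp. Scaling itself moved the median of all tested miRNAs in that comparison from -0.11 to 0.03 with no scaling and to 0.00068 with the percentile over all miRNAs. In YQFM against MI, miR-503-5p turned to 0.011 with normexp, 0.42 with the total gene signal, 0.032 with the authors' values and 0.0059 with no scaling, miR-497-5p to 0.12 with the authors' values, 0.059 with no scaling and 0.025 on its dimmer probe, and miR-15b-5p and miR-322-5p to 0.00082 and 0.061 with the authors' values. The dimmer probe of miR-503-5p gave no value.

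Leaving out 1 array at a time gave 4 to 62 calls in MI against Sham, highest without MI replicate 4, and 0 to 28 in YQFM against MI, again highest without MI replicate 4; without YQFM replicate 1 these were 29 and 23. The ratios in MI against Sham ran from 0.030 to 0.42 for miR-15b-5p, 0.18 to 0.42 for miR-16-5p, 0.33 to 0.76 for miR-195-5p, 0.15 to 0.45 for miR-497-5p, 0.0098 to 0.22 for miR-322-5p and -0.20 to 0.21 for miR-503-5p. In YQFM against MI they ran from -0.38 to 0.024 for miR-15b-5p, -0.46 to 0.0023 for miR-195-5p, -0.30 to 0.11 for miR-497-5p and -0.28 to 0.14 for miR-503-5p. In YQFM against Sham they ran from -0.14 to 0.15 for miR-15b-5p, -0.11 to 0.13 for miR-16-5p, -0.10 to 0.10 for miR-322-5p and -0.13 to 0.040 for miR-503-5p. On these arrays 471 of the 758 miRNAs were never detected.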
